A study of Homo sapiens with 9 samples.

Results

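The T-cell receptor chain loci, the genes of the CD3 signalling chains and the RAG recombinase genes were examined in peak lists of DND-41 cells. DND-41 is an established human leukemia line of T-cell origin. Members were the peaks that overlapped 1 of 6 hg19 windows by at least 1 bp, each window being a locus with 25 kb added on both sides. The windows are TRA/TRD (22065001 to 23046000 on chromosome 14), TRB (141974001 to 142536000 on chromosome 7), TRG (38255001 to 38433000 on chromosome 7), CD3E/CD3D/CD3G (118150001 to 118250000 on chromosome 11), CD247 (167375001 to 167513000 on chromosome 1) and RAG1/RAG2 (36565001 to 36645000 on chromosome 11). Of 183634 peaks in all, 391 were members. They comprised 120 of 52967 H3K27ac peaks in ACBI, 141 of 90495 H3K27ac peaks in DMSO, 68 of 19893 RUNX1 peaks, 21 of 7445 BRG1 peaks and 41 of 12834 H3K4me3 peaks.

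The libraries are given as CUT&RUN, in which an antibody directs a nuclease to its target and the released DNA is sequenced. The control for RUNX1 is labelled an input and the other controls IgG. Whether the RUNX1 library was made in the same way as the others is not known here. H3K27ac marks active enhancers and promoters and was profiled after 100 nM ACBI-1 and after DMSO, the vehicle. ACBI-1 is a degrader of the SWI/SNF ATPases, among them BRG1. RUNX1 (a DNA-binding factor of blood lineages), BRG1 (the SMARCA4 ATPase of SWI/SNF) and H3K4me3 (a promoter mark) were profiled in cells whose labels give no treatment. Each group is 1 library, so differences could not be set against replicate spread, and p-values were not computed. The H3K27ac titles in both conditions carry the same replicate number, and no other replicate of either is among the samples. Read depth is unknown, because the lists hold positions only, and a library of lower depth gives fewer and narrower peaks. Its part in any difference between ACBI and DMSO was not tested.

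The antigen receptor of a T cell is a pair of variable chains, alpha with beta or gamma with delta, which are encoded by TRA, TRB, TRG and TRD. RAG1 and RAG2 cut DNA at the recombination signals of these loci, and the joining of gene segments can remove the DNA between them. The receptor signals through CD3 epsilon, delta and gamma (CD3E, CD3D, CD3G) and the zeta chain (CD247), whose tails carry tyrosine activation motifs. Enhancers downstream of the TRA and TRB constant regions are known to bind RUNX factors. DNA copy number was not measured here, so a stretch without peaks may be unmarked or absent from these cells. Members of receptor gene families resemble each other. The RUNX1 header carries the tag dedup_uniq, and how reads that match several places were treated is otherwise not stated. RNA was not measured either, so marks below say nothing of transcript levels.

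The start regions of CD3D, CD247 and RAG2 are shown because H3K4me3 and H3K27ac were called at these loci and RUNX1 was one of the profiled factors. The sequences are the 250 bases before each gene's start, 5′ to 3′ on the minus strand, from RefSeq (GRCh38.p14), and they were matched by gene symbol. Their build differs from that of the peaks, so no peak was placed on them. Capitals mark the RUNX core, TGNGGT on either strand. The CD3D sequence is chr11:118342706-118342955, that of CD247 is chr1:167518530-167518779 and that of RAG2 is chr11:36598237-36598486.
CD3D: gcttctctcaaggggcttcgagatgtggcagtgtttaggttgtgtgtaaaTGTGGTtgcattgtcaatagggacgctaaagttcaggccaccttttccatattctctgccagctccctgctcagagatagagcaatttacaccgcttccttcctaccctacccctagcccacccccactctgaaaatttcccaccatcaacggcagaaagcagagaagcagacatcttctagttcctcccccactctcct
CD247: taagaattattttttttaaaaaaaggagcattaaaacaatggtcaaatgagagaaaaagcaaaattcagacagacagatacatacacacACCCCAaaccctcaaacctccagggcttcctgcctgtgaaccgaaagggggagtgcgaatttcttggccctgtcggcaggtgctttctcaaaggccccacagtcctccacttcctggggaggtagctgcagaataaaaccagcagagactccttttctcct
RAG2: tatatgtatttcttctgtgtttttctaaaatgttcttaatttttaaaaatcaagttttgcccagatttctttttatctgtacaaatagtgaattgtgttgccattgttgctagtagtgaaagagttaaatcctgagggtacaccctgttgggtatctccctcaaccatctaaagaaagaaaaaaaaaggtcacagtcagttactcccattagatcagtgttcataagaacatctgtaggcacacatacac
The table held 4 of the 6 genes. The entry for RAG1 begins further upstream than the RAG1/RAG2 locus used here and is not shown. CD3D held 1 RUNX core, TGTGGT, at 200 to 195 bases before the start. CD247 held 1, read on the other strand as ACCCCA, at 161 to 156 bases before the start. RAG2 held none in this stretch. The core was present in 37.7% of 35116 promoters of the same length, so a match is common. An E-box, CAGNTG, was present once each in CD247 and RAG2 and in 42.5% of all promoters, and it did not overlap a RUNX core.

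RUNX1 peaks were several times denser at 5 of the 6 loci than over the genome, and less so at TRG. The 68 peaks in 2039 kb of window correspond to 3.33 peaks per 100 kb, against 0.662 per 100 kb over the chromosome spans, a ratio of 5.04. This is not particular to RUNX1: the ratio was 4.71 for H3K4me3, 4.16 for BRG1, and 3.34 in ACBI and 2.30 in DMSO for H3K27ac. Stretches of at least 50 kb without any peak make up 75.4% of the spans, which lowers the genome's density. With flanks, RAG1/RAG2 had the highest density with 9 peaks in 80 kb, or 11.25 per 100 kb, followed by CD3E/CD3D/CD3G with 6 peaks in 100 kb. This order turned without flanks, where RAG1/RAG2 had 1 peak in 30 kb and CD3E/CD3D/CD3G 5 in 50 kb. TRB held 21 peaks (3.74 per 100 kb), CD247 5 (3.62) and TRA/TRD 25 (2.55). TRG held 2 peaks (1.12 per 100 kb), both in its low-coordinate flank, and none in the locus itself. BRG1 was densest at RAG1/RAG2 only by its flanks, where all 3 of its peaks lay, and without flanks it had 0. With flanks there were 3 peaks at RAG1/RAG2 (3.75 per 100 kb), 2 at CD247, 7 at TRB, 1 at CD3E/CD3D/CD3G, 7 at TRA/TRD and 1 at TRG, against 0.248 per 100 kb over the chromosome spans. These densities count a handful of peaks per locus, and the lists of different targets may come from different settings.

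**Figure D1:**
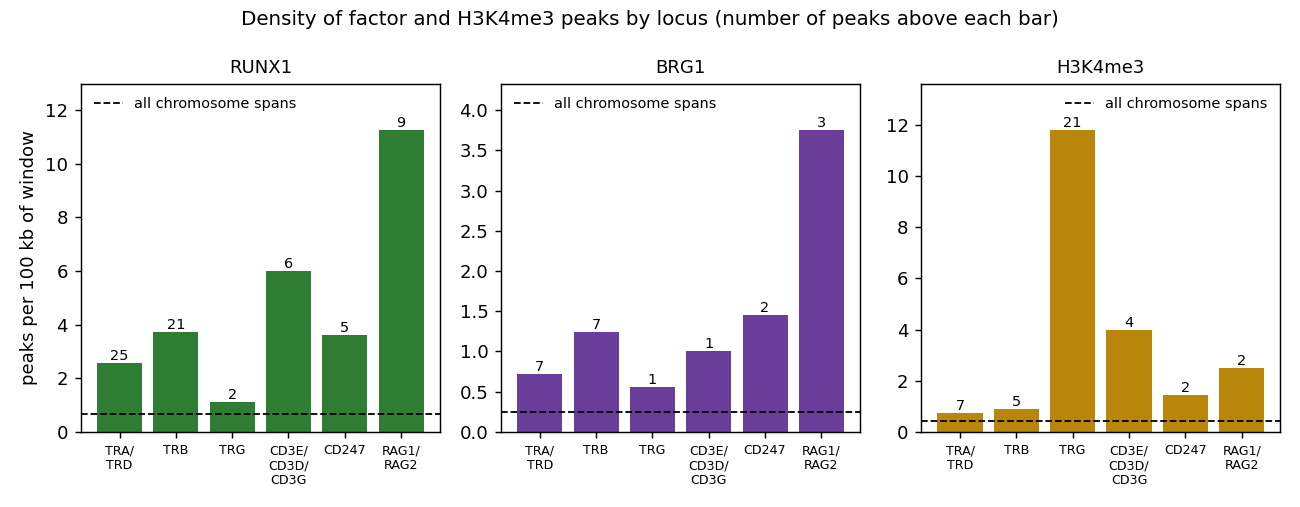
Peaks per 100 kb of window (y axis) for RUNX1, BRG1 and H3K4me3 at the 6 loci, with the number of peaks above each bar and the density over all chromosome spans as a dashed line. RAG1/RAG2 has the tallest RUNX1 and BRG1 bars (11.25 and 3.75), and TRG the tallest H3K4me3 bar (11.8). Without flanks RAG1/RAG2 has 1 RUNX1 and 0 BRG1 peaks.

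Where BRG1 was called at these loci, RUNX1 was mostly called too. Of the 21 BRG1 peaks, 19 overlapped RUNX1 (90.5%, exact 95% interval 69.6 to 98.8), against 80.6% (79.7 to 81.5) of the BRG1 peaks outside the 6 loci, and 17 lay wholly inside a RUNX1 peak. The exceptions were 1 peak at CD247, 590 bp from the nearest RUNX1 peak, and 1 at RAG1/RAG2, 644 bp from it. In the other direction, 17 of the 68 RUNX1 peaks (25%, 15.3 to 37.0) overlapped BRG1, against 29.8% (29.1 to 30.4) elsewhere. When 50% of the RUNX1 peak had to be covered, 6 of 68 (8.82%) did. Both intervals at the loci contain the values elsewhere.

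The factors sat mainly away from H3K4me3 at these loci. Of the RUNX1 peaks, 22.1% (12.9 to 33.8; 15 of 68) overlapped H3K4me3, against 43.1% (42.4 to 43.8) outside the 6 loci. Of the BRG1 peaks, 23.8% (8.22 to 47.2; 5 of 21) did, against 61.9% (60.8 to 63.0). CD3E/CD3D/CD3G was the locus where most RUNX1 peaks, 5 of 6, were on H3K4me3. All 21 BRG1 peaks (83.9 to 100%) overlapped H3K27ac in DMSO, against 91.9% outside the loci. Of the RUNX1 peaks, 60 of 68 did (88.2%, 78.1 to 94.8), against 83.8%, so both shares were near those elsewhere. The intervals count peaks as independent, which neighbouring peaks are not, and they cover counting error only.

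At TRA/TRD, the factors gathered in the middle of the window and beyond the end of the locus. The window holds 981 kb, and 9 RUNX1 peaks lay between 448 and 483 kb from the start of the locus. Among them was the widest RUNX1 peak of all members, 2559 bp (22564009 to 22566567), the 20th widest of the 19893. It held 2 BRG1 peaks of 313 and 174 bp and the whole of an H3K4me3 peak of 812 bp. H3K27ac covered 852 bp of it in ACBI and all 2559 bp in DMSO. A second cluster of 2 BRG1 peaks lay in a RUNX1 peak of 1561 bp (22645358 to 22646918) with no H3K4me3. In the high-coordinate flank, past the end of the locus, a RUNX1 peak of 1870 bp (23024535 to 23026404) held no BRG1 or H3K4me3 and was covered fully by H3K27ac in both conditions. A further RUNX1 peak there (23030435 to 23031132) held a BRG1 peak of 183 bp and lay in H3K27ac over 0 bp in ACBI and 472 bp in DMSO.

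H3K27ac at TRA/TRD covered 35.5 kb (3.62% of the window) in ACBI and 53.6 kb (5.46%) in DMSO, a ratio of 0.663. The number of peaks was 13 in ACBI and 28 in DMSO. No ACBI peak overlapped 13 of the 28 DMSO peaks (46.4%, 27.5 to 66.1), a share whose interval contains the 59.1% of all DMSO peaks. The broadest domain lay about 80 to 100 kb before the end of the locus and carried 4 of the 7 H3K4me3 peaks, the widest of 3535 bp (22919096 to 22922630). Here a single ACBI peak of 17469 bp (22919204 to 22936672) joined 4 DMSO peaks, of which the widest had 14683 bp (22924357 to 22939039). At the BRG1 and RUNX1 cluster the difference was the opposite: the DMSO peak of 7995 bp (22560718 to 22568712) overlapped 2257 bp of ACBI peak. No H3K27ac peak of either condition was called in the low-coordinate flank.

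At TRB, which encodes the beta chain, peaks fell in 2 blocks with a stretch of 217.9 kb between them (142276117 to 142494052) in which none of the 5 lists had a peak. Stretches of at least 200 kb without any peak hold 58.3% of the chromosome spans, so its length alone does not set it apart. The TRA/TRD window held stretches of 168.5 and 156.6 kb without peaks. At TRB, the block at lower coordinates was itself interrupted by 51.1 kb without peaks (142048192 to 142099331). The block beyond the 217.9 kb was an H3K27ac domain of almost the same size in both conditions, 19326 bp in ACBI (142494057 to 142513382) and 19316 bp in DMSO (142494053 to 142513368). It held the widest TRB H3K4me3 peak, 4168 bp (142494054 to 142498221), 5 RUNX1 peaks and 2 BRG1 peaks. One of these, at 751 bp, was the widest BRG1 peak of all members (142506345 to 142507095, rank 169 of 7445). The RUNX1 peak around it had 1421 bp (142506077 to 142507497), with no H3K4me3, and H3K27ac covered both fully in ACBI and in DMSO.

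In the block before the long stretch, H3K27ac was called in many separate peaks. Of the 7 BRG1 peaks of TRB, 5 lay here, each overlapping RUNX1 and none on H3K4me3. Over the window, H3K27ac covered 101.9 kb (18.1%) in ACBI and 134.5 kb (23.9%) in DMSO, a ratio of 0.757. TRB was the locus with more peaks in ACBI than in DMSO, 46 against 38. There, 9 of the 38 DMSO peaks (23.7%) were overlapped by 2 or more ACBI peaks, against 5.64% of all DMSO peaks. A DMSO peak of 14206 bp (142141865 to 142156070) was overlapped by 3 ACBI peaks over 9021 bp. Of the 46 ACBI peaks, 4 (8.70%, 2.42 to 20.8) overlapped no DMSO peak, against 21.4% of all ACBI peaks, and the widest had 709 bp (142516971 to 142517679).

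TRG, which encodes the gamma chain, stood apart by H3K4me3 without either factor. Its window held 21 H3K4me3 peaks, 11.8 per 100 kb against 0.427 over the chromosome spans. They were small pieces with a median of 342 bp, against 1420 bp over the whole list, and 13 of them were under 500 bp. The widest, of 1616 bp (38388979 to 38390594), was the one TRG peak above 1 kb. None of the 21 overlapped RUNX1 or BRG1. All 21 lay in the locus itself, where neither factor had a peak, so no overlap was possible there. Outside the 6 loci, 58.9% of the H3K4me3 peaks overlapped RUNX1 and 34.6% overlapped BRG1. The 21 peaks lay in 2 groups with 77.1 kb between (38293006 to 38370095) that held no peak of any list. H3K27ac overlapped 14 of the 21 in ACBI (66.7%, 43.0 to 85.4) and 17 in DMSO (81.0%, 58.1 to 94.6). Outside the 6 loci the shares were 78.5% in ACBI and 92.8% in DMSO, both within these intervals. Because so many narrow peaks lie close together, their number depends on how the caller divides a region. Intervals over them treat such pieces as independent.

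The factors at TRG were outside the locus, in the low-coordinate flank. A RUNX1 peak of 765 bp (38272318 to 38273082) held a BRG1 peak of 199 bp and was covered fully by H3K27ac in both conditions. The H3K27ac peak around it measured 4623 bp in ACBI (38270666 to 38275288) and 8188 bp in DMSO (38267351 to 38275538). Over the window, H3K27ac covered 34.0 kb in ACBI and 53.3 kb in DMSO, a ratio of 0.638. It was the lowest of the 6 with flanks, while without flanks TRA/TRD was lowest at 0.639 and TRG had 0.692. Of the 12 TRG peaks that pair 1 to 1 between the conditions, 11 were narrower in ACBI, with a median of 1196 bp in ACBI and 2196 bp in DMSO. Over the genome 74.5% of such pairs were narrower in ACBI, with medians of 880 bp in ACBI and 1457 bp in DMSO.

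**Figure D2:**
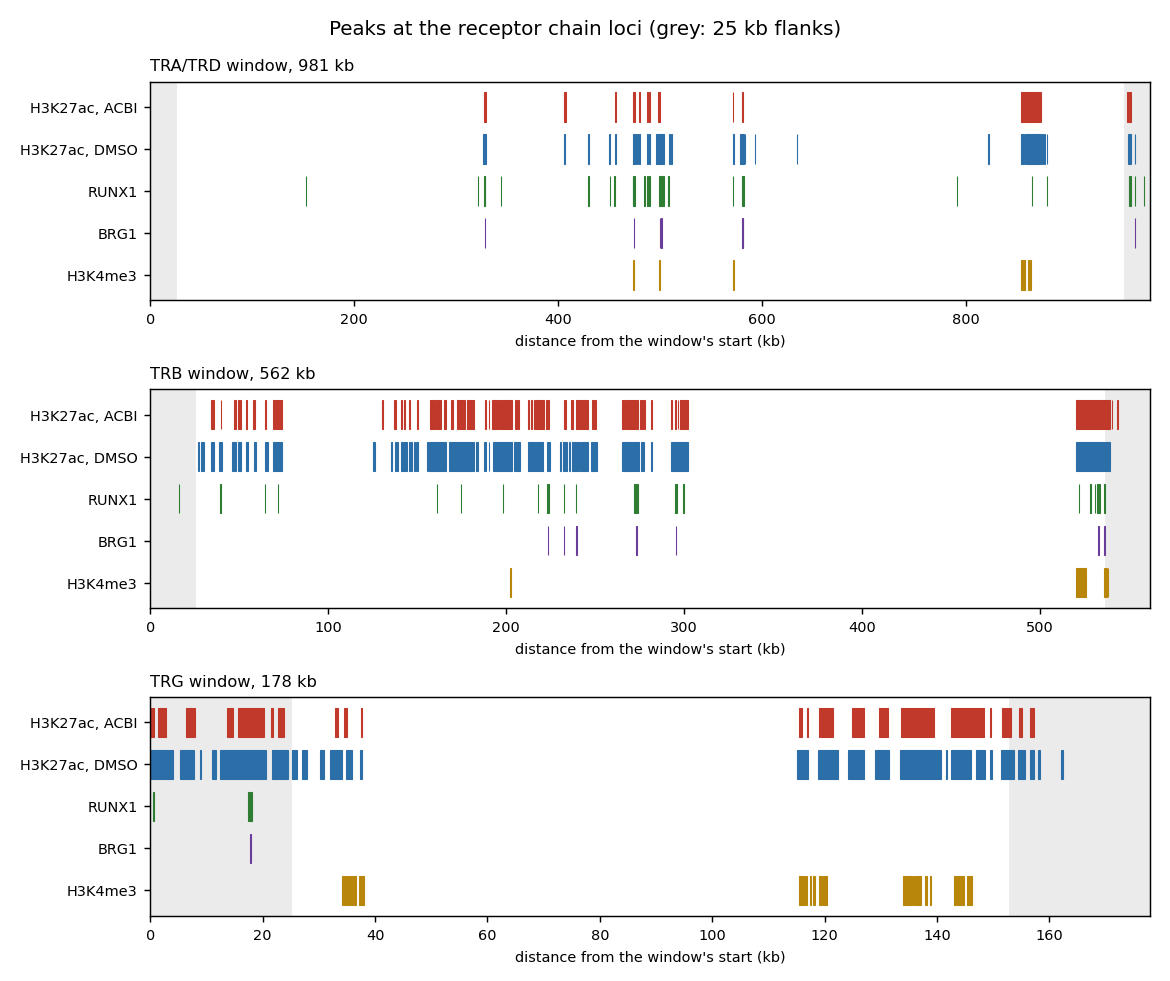
Peaks of the 5 lists along the TRA/TRD, TRB and TRG windows, with the distance from the window's start in kb on the x axis, 1 row per list and the 25 kb flanks in grey. TRB shows the 217.9 kb without peaks before its last H3K27ac domain, and TRG shows H3K4me3 in 2 groups with RUNX1 and BRG1 in the flank only.

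The genes of the CD3 chains carried H3K27ac over more length in ACBI than in DMSO. CD3E, CD3D and CD3G lie next to each other in this order in RefSeq, and UBE4A follows. H3K27ac covered 46.5 kb of the 100 kb window (46.5%) in ACBI and 41.9 kb (41.9%) in DMSO, a ratio of 1.11. In the 50 kb of the locus without flanks it covered 39.3 kb in ACBI and 32.8 kb in DMSO, a ratio of 1.20. In the locus, 98.9% of the DMSO length was also covered in ACBI. The ACBI library had a peak of 23493 bp (118172369 to 118195861), rank 66 of 52967, that joined 3 DMSO peaks of 6453, 289 and 12777 bp. Its other wide peak, of 18025 bp (118205514 to 118223538), joined DMSO peaks of 13969 and 1541 bp. Both flanks went the other way, with 4.62 kb in ACBI and 6.24 kb in DMSO on the side of UBE4A, and 2.63 kb in ACBI and 2.92 kb in DMSO on the opposite side. In the window, 3 of the 10 ACBI peaks (30%, 6.67 to 65.2) overlapped no DMSO peak, an interval that contains the 21.4% of all ACBI peaks, and the widest had 522 bp (118237154 to 118237675).

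The same locus held the 4th widest H3K4me3 peak of the 12834 in the list, 8638 bp (118209376 to 118218013). Both H3K27ac lists covered it fully, and 2 RUNX1 peaks of 191 and 252 bp lay in it, with no BRG1. Another H3K4me3 peak, of 1891 bp (118175143 to 118177033), began 142 bp from the low-coordinate end of the locus, the end on which CD3E lies. A RUNX1 peak of 651 bp (118174973 to 118175623) spanned that end. The widest RUNX1 peak of the window had 1488 bp (118186536 to 118188023), rank 346, and held the locus's BRG1 peak of 161 bp together with an H3K4me3 peak of 299 bp. H3K27ac covered it fully in ACBI and in DMSO.

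CD247, which encodes the zeta chain, had the most H3K27ac of the 6 windows by share in DMSO. The mark covered 65.4 kb of 138 kb (47.4%) in ACBI and 79.5 kb (57.6%) in DMSO, a ratio of 0.822. Its widest DMSO peak, of 19860 bp (167440791 to 167460650), was overlapped by 4 ACBI peaks over 16884 bp. The next, of 15945 bp (167461457 to 167477401), was overlapped by 2 over 13008 bp. In all, 5 of the 24 DMSO peaks of CD247 (20.8%) were overlapped by 2 or more ACBI peaks, against 5.64% of all DMSO peaks. Joins occurred there too: 3 of its 21 ACBI peaks (14.3%) joined 6 DMSO peaks, against 3.85% of all ACBI peaks that joined 2 or more. Of the 3, a peak of 1669 bp (167460482 to 167462150) bridged the pair of broad DMSO peaks just named. CD247 runs toward lower coordinates, and an H3K4me3 peak of 2734 bp (167485267 to 167488000) ended at the edge of the locus where it starts. That peak held a BRG1 peak of 167 bp and a RUNX1 peak of 200 bp, 590 bp apart. Inside the locus, 43.3 kb from its low-coordinate end, a RUNX1 peak of 589 bp held a BRG1 peak of 442 bp (167443311 to 167443752) off H3K4me3. H3K27ac covered both fully in both conditions.

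RAG1/RAG2 was the second locus with more covered length in ACBI. H3K27ac covered 41.1 kb of 80 kb (51.3%) in ACBI and 37.8 kb (47.2%) in DMSO, a ratio of 1.09. With peaks within 1 kb merged, the difference shrank to 41.9 kb in ACBI and 40.8 kb in DMSO, a ratio of 1.03. In the 30 kb without flanks the values were 17.8 kb in ACBI and 12.9 kb in DMSO, a ratio of 1.38. Both flanks had less in ACBI, with 7.02 kb in ACBI and 7.78 kb in DMSO on the RAG1 side, and 16.3 kb in ACBI and 17.1 kb in DMSO on the RAG2 side. An ACBI peak of 12915 bp (36585440 to 36598354) joined DMSO peaks of 7523 and 4064 bp, and an ACBI peak of 14082 bp (36614315 to 36628396) joined DMSO peaks of 1282 and 11271 bp. The 2 H3K4me3 peaks lay across the ends of the locus, 4925 bp (36589358 to 36594282, rank 90 of 12834) at the RAG1 end and 2294 bp (36617875 to 36620168) at the RAG2 end. RUNX1 peaks met both, with 552 bp (36589158 to 36589709) at the RAG1 end and 256 bp (36619962 to 36620217) at the RAG2 end.

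Between the RAG ends neither factor was called: 8 of the 9 RUNX1 peaks were in the flanks and the remaining 1 lay across the RAG2 end. All 3 BRG1 peaks were in the flanks. One of them, of 199 bp (36580208 to 36580406), lay in a RUNX1 peak of 742 bp about 10 kb before the RAG1 end. The other 2 (36639840 to 36640008 and 36641137 to 36641337) lay about 20 kb past the RAG2 end, in an H3K27ac domain of 8468 bp in ACBI and 8568 bp in DMSO. IFTAP follows RAG2 in RefSeq, and peaks were not assigned to genes.

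**Figure D3:**
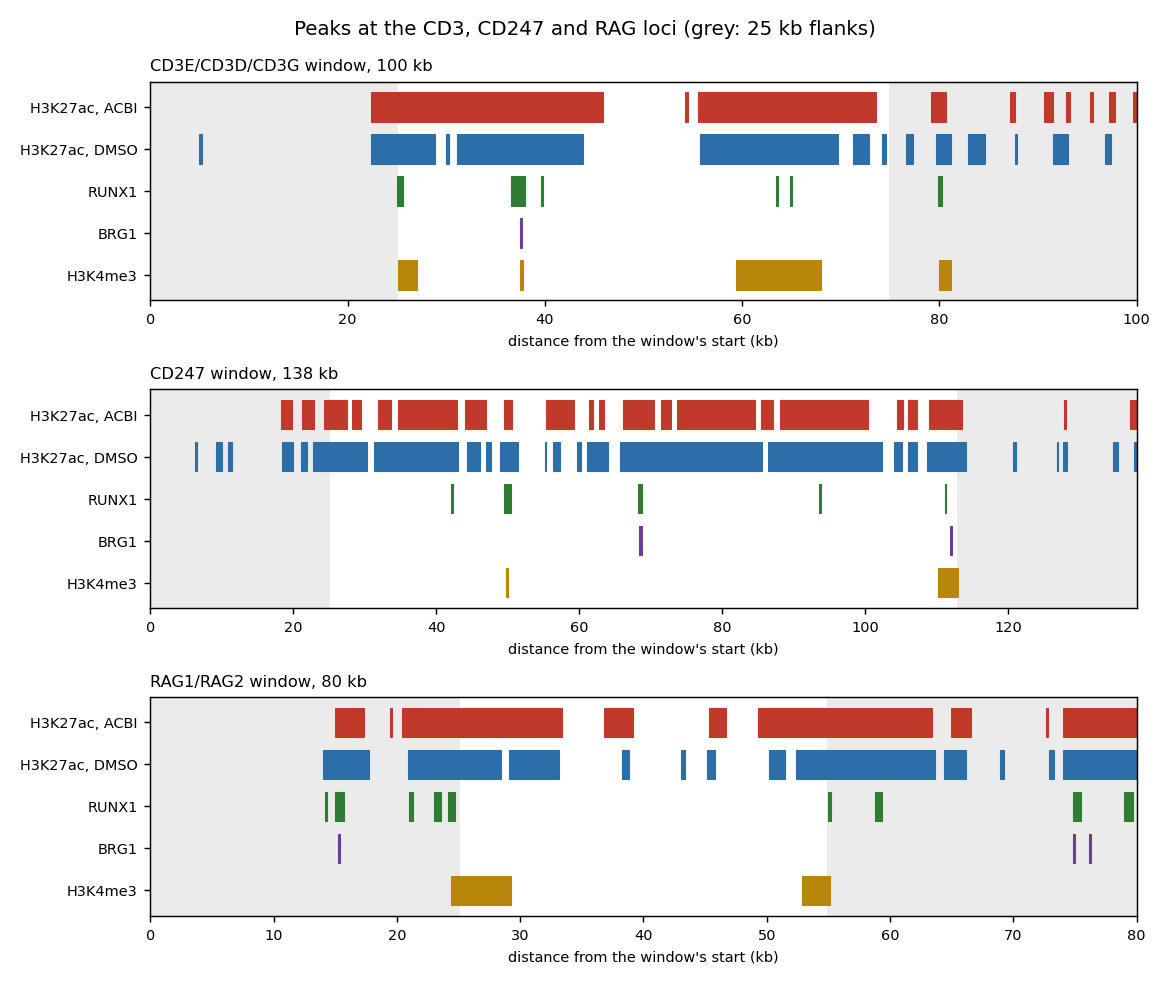
Peaks of the 5 lists along the CD3E/CD3D/CD3G, CD247 and RAG1/RAG2 windows, with the distance from the window's start in kb on the x axis and the 25 kb flanks in grey. Single ACBI peaks span several DMSO peaks at CD3E/CD3D/CD3G (23493 and 18025 bp) and RAG1/RAG2 (12915 and 14082 bp), while the 19860 bp DMSO peak of CD247 faces 4 ACBI peaks.

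Set against the rest of the genome, the loci kept more H3K27ac length. Over the 6 windows the mark covered 324.4 kb in ACBI and 400.7 kb in DMSO, a ratio of 0.810, against 0.555 outside them. The CD3, CD247 and RAG windows together had a ratio of 0.960, and the 3 receptor chain windows 0.710. Of the DMSO length in the windows, 72.3% was also covered in ACBI, against 44.2% elsewhere. The covered length was at least as large in ACBI as in DMSO in 2 of 6 windows, compared with 4.16% of the 6184 bins of 100 kb that hold at least 5 kb of DMSO H3K27ac. Bins with at least 30 kb of the mark, which are nearer in cover to CD3E/CD3D/CD3G, CD247 and RAG1/RAG2, did so in 5.64% of 1046 cases. Their ratios had a median of 0.617, an upper quartile of 0.763 and a 95th percentile of 1.01. CD3E/CD3D/CD3G and RAG1/RAG2 lay above that percentile and CD247 above the quartile. Of the 1918 bins with at least 20 kb, 4.43% had at least as much in ACBI, with a median ratio of 0.577 and an upper quartile of 0.731. TRB, at 0.757, lay above that quartile, and TRG, at 0.638, between it and the median. TRA/TRD is sparse in the mark, and its 0.663 lay between the median of 0.498 and the upper quartile of 0.665 of the bins with at least 5 kb. The windows differ in length from the bins.

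**Figure D4:**
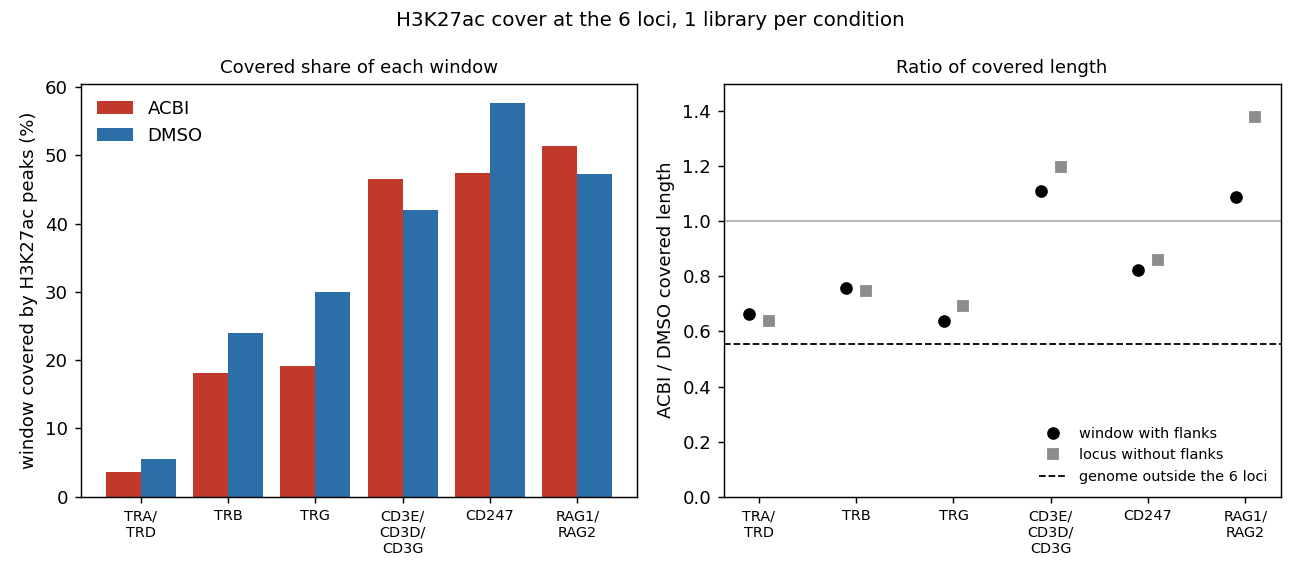
Left, the share of each window covered by H3K27ac peaks (%) in ACBI (red) and DMSO (blue). Right, the ratio of covered length in ACBI to DMSO per locus with flanks (circles) and without (squares), where all points lie above the ratio of the rest of the genome (dashed line, 0.555) and CD3E/CD3D/CD3G and RAG1/RAG2 lie above 1.

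Counted as peaks, the difference had the same direction. Of the 141 DMSO peaks of the loci, 46 were lost, meaning that no ACBI peak overlapped them (32.6%, 24.97 to 41.02), against 59.1% of all 90495 DMSO peaks. The share was 46.4% at TRA/TRD (13 of 28), 38.5% at CD3E/CD3D/CD3G (5 of 13), 33.3% at CD247 (8 of 24), 30.8% at TRG (8 of 26), 25% at RAG1/RAG2 (3 of 12) and 23.7% at TRB (9 of 38). The intervals of these 6 shares overlap. Those of TRA/TRD (27.5 to 66.1) and CD3E/CD3D/CD3G (13.9 to 68.4) contain the 59.1%, so these counts do not set either locus apart from the genome. The upper limits at the other loci lie below it, the highest being 57.2% at RAG1/RAG2. Lost peaks of the loci were narrow: their median width was 616 bp, that of kept peaks 2027 bp. The widest lost peak of the loci had 1773 bp (22514476 to 22516248 at TRA/TRD). Over the genome, too, lost peaks had a lower median width than kept peaks, whose median was 1642 bp. Both medians were higher at the loci than over the genome, so narrow lost peaks do not set the loci apart. Of the 120 ACBI peaks, 9 were gained (7.50%, 3.49 to 13.8), against 21.4% of all ACBI peaks. Gained means that no DMSO peak overlapped them.

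The loci hold wider peaks than the genome, and wide peaks count as kept more readily, so the shares were also taken by width. Peaks of 10 kb or more made up 7.09% of the DMSO peaks at the loci (10 of 141) and 1.07% of all. Among DMSO peaks of 500 to under 2000 bp, 41.2% (29.4 to 53.8; 28 of 68) were lost at the loci and 58.7% (58.2 to 59.2) elsewhere. Among those of 2000 to under 10000 bp, 0 of 38 (upper limit 9.25%) were lost at the loci and 10.4% (9.95 to 10.9) elsewhere. Under 500 bp, 72.0% (50.6 to 87.9; 18 of 25) were lost at the loci and 86.2% elsewhere, a difference within the interval at the loci. Of the 10 peaks of 10 kb or more at the loci, ACBI peaks covered 89.8% of the length, against 79.1% of the length of such peaks elsewhere. Peaks of the same width class can still differ in width and height, and heights are not in the lists.

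**Figure D5:**
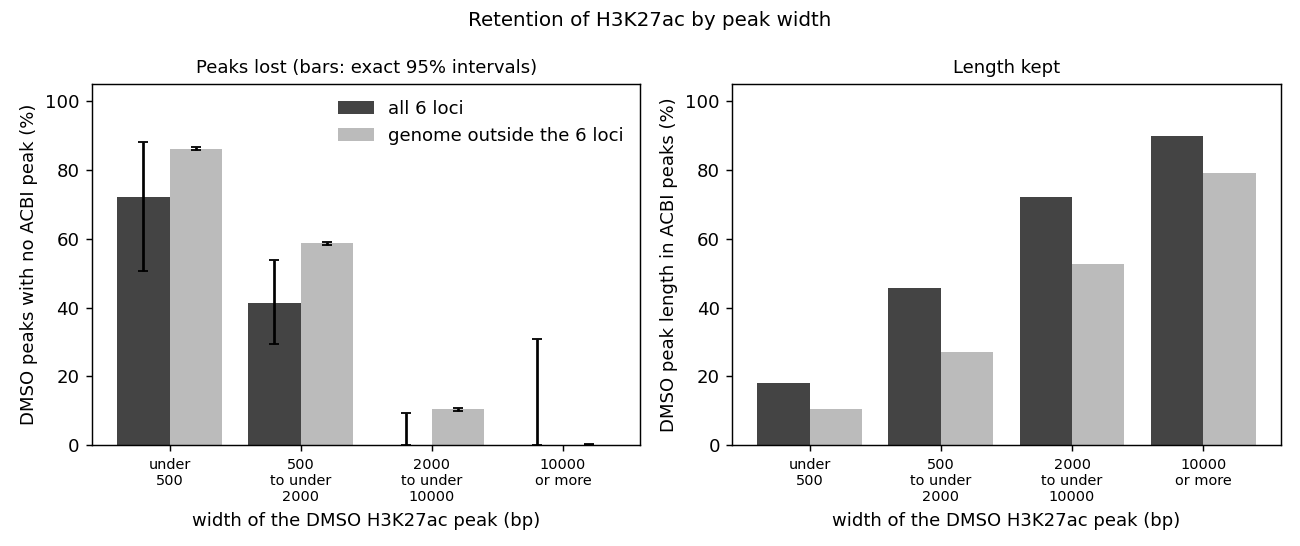
DMSO H3K27ac peaks by width, at the 6 loci (dark) and outside them (light). Left, the share lost in ACBI (%) with exact 95% intervals over peaks. Right, the share of their length inside ACBI peaks (%), which is higher at the loci in each class, from 18.1% against 10.5% under 500 bp to 89.8% against 79.1% at 10 kb or more.

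Some measures were close to those of the genome, and others differed from them. In the 57 pairs of exactly 1 DMSO and 1 ACBI peak at the loci, the ACBI peak was the narrower in 73.7%, against 74.5% of 28543 such pairs over the genome. Their median widths were 1354 bp in ACBI and 1581 bp in DMSO at the loci, and 880 bp in ACBI and 1457 bp in DMSO over the genome. ACBI peaks that joined 2 or more DMSO peaks were 10 of 120 (8.33%), against 3.85% of all, and DMSO peaks overlapped by 2 or more ACBI peaks were 20 of 141 (14.2%), against 5.64% of all. Both counts may depend on the width and spacing of peaks, which was not tested.

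At most loci, H3K27ac was still called at the factor sites in ACBI, counted as an overlap of at least 1 bp. Of the 60 RUNX1 peaks in DMSO H3K27ac, 53 (88.3%, 77.4 to 95.2) also overlapped H3K27ac in ACBI, against 76.1% (75.4 to 76.7) outside the loci. The 7 that did not were 6 peaks of TRA/TRD and 1 of RAG1/RAG2. At TRA/TRD the share was thus 12 of 18 (66.7%, 41.0 to 86.7), with an interval that contains the 76.1%. An overlap can be partial, and these shares were not taken by the width of the H3K27ac peaks. All 20 such RUNX1 peaks of TRB, 6 of CD3E/CD3D/CD3G, 5 of CD247 and 2 of TRG remained in H3K27ac. Of the 21 BRG1 peaks, 19 (90.5%, 69.6 to 98.8) overlapped H3K27ac in ACBI, against 76.3% of the acetylated BRG1 peaks outside the loci, a value within the interval. The 2 others were both at TRA/TRD, 174 bp (22566231 to 22566404) and 183 bp (23030781 to 23030963). The RUNX1 and BRG1 libraries carry no treatment label, so whether either factor was still bound after ACBI-1 was not measured.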

How the data were processed

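Peak lists of 5 DND-41 libraries, given as CUT&RUN, were used, and the 4 IgG or input controls of the 9 samples were not analysed here. The authors deposited 4 columns per peak (chromosome, start, end and name), with no score, signal or read count. Positions are in hg19, and MACS2 and SEACR are the tools named, per the submitters' processing notes. RUNX1 peaks are from MACS2, per the file headers, which also state that H3K27ac peaks in both conditions are broad ones at q below 0.01. The H3K27ac headers name signal tracks with and without spike-in scaling, which does not say whether peak calling used it. Neither the aligner nor other thresholds or the use of controls is stated.

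Windows came from the locus bounds with 25 kb flanks. Covered length was clipped to the window, and a peak overlapping it by 1 bp was counted whole. Chromosome spans run from the first to the last peak of any list. Intervals are exact Clopper-Pearson at 95% over peaks. Named peaks were every BRG1 peak, every H3K4me3 peak (3 widest if over 5), the 3 widest RUNX1 peaks and the 3 widest DMSO, lost and gained H3K27ac peaks of a locus, of which those that bear on a comparison are printed. A few further peaks, such as joined ACBI peaks and RUNX1 peaks beyond the 3 widest, were chosen after their values were seen. The loci, lists and comparisons were chosen with earlier results of these data known. Other T-cell receptor pathway genes were not placed, since no hg19 annotation was used here. Gene order and strand come from RefSeq for GRCh38.p14, without its coordinates for peaks. Python 3.11.15, numpy 2.4.6, pandas 2.3.3, scipy 1.17.1 and matplotlib 3.10.9 were used. Overlaps were tested on simulated data and against bedtools 2.31.1, with 0 peaks differing over 20 pairs of lists. Alternatives were other flanks, overlap rules, minimum widths, merged peaks and equal numbers of peaks.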

Additional observations from a re-analysis of the deposited data

How the results depend on the processing

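The ratio of H3K27ac length in ACBI to DMSO was recomputed without flanks, with 50 kb flanks, with peaks of at least 500 bp, with equal numbers of the widest peaks and with peaks within 1 kb merged. It stayed above the genome's ratio under the same setting in 36 of 36 comparisons. These rework the same libraries and are not independent checks, and the bins of like cover were not recomputed by setting. The ratio stayed above 1 in the 12 values of CD3E/CD3D/CD3G (1.09 to 1.20) and RAG1/RAG2 (1.03 to 1.38). It ranged from 0.631 to 0.690 at TRA/TRD, 0.741 to 0.787 at TRB, 0.605 to 0.692 at TRG and 0.788 to 0.860 at CD247, and over the genome from 0.549 to 0.618. At equal peak numbers it was 0.662 at TRG and 0.690 at TRA/TRD, against 0.618 over the genome. The share of DMSO peaks lost at the loci was 46.8% if ACBI had to cover 50% of each peak (75.6% over the genome), 24.1% when an ACBI peak within 1 kb was accepted (51.0%) and 23.0% at equal peak numbers (40.7%). The share of RUNX1 peaks on BRG1 was 8.82% with 50% covered. Without flanks, TRG had 0 RUNX1 and 0 BRG1 peaks, and RAG1/RAG2 had 1 RUNX1 and 0 BRG1 peaks. The bins with at least 20 kb and at least 30 kb of H3K27ac were added after seeing the data. No paired analysis was possible because each condition has 1 library and no test was made, and for the same reason no replicate could be left out. Read depth, unknown here, limits how far fewer or narrower ACBI peaks can be read as less acetylation.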
